A study of Mus musculus with 8 samples.

Results

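The nuclear genes that encode subunits of respiratory complexes II to V, together with cytochrome c, were described in 8 bulk RNA-seq libraries of mouse haematopoietic stem cells (HSCs). Members were the gene rows mapping to protein-coding symbols that are Sdha to Sdhd, begin with Uqcr, are Cyc1 or Cycs, begin with Cox4 to Cox8, or begin with Atp5. This rule found 50 of 55487 gene rows: 4 of complex II, 9 of complex III, cytochrome c, 18 of complex IV and 18 of complex V. A further 8 rows matched the symbol patterns but were not protein-coding and were left out. The symbol Atp5o occurs on 2 rows, so the 50 rows carry 49 symbols. At least 1 count was found for 46 members, and 44 passed the filter on low counts and were tested; 6 were not.

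Both groups were HSCs sorted and processed with Smart-seq2, a protocol that amplifies full-length cDNA from small cell numbers. The 4 NTC libraries carry the genotype label of a non-target control, and the 4 miR652-KD libraries that of a knockdown of the microRNA miR-652. The series title concerns the pseudouridine synthase Pus10 in ageing HSCs. The labels give neither the knockdown method nor the sort markers, strain or age, and do not say whether replicates came from separate animals, so p-values cover no more than the spread among the 8 libraries, which may be technical.

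Oxidative phosphorylation passes electrons from nutrients to oxygen and uses the resulting proton gradient to make ATP. Complex II (succinate dehydrogenase) feeds electrons to coenzyme Q, complex III (cytochrome bc1) passes them to the mobile carrier cytochrome c, complex IV (cytochrome c oxidase) hands them to oxygen, and complex V (ATP synthase) lets protons back through a rotor that drives ATP formation. Complex II is wholly nuclear-encoded, whereas complexes III, IV and V each combine nuclear subunits with subunits made inside the mitochondrion. Quiescent HSCs are known for leaning on glycolysis and for raising mitochondrial respiration as they differentiate.

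The knocked-down microRNA has 2 mature arms, shown because sites for them were searched in the members' 3′ UTRs. Both come from chromosome X, plus strand (RefSeq, GRCm38.p6), and capitals mark the seed, bases 2 to 8.
miR-652-5p, chrX:142739020-142739043: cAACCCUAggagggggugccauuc
miR-652-3p, chrX:142739060-142739080: aAUGGCGCcacuaggguugug
In the longest annotated 3′ UTR, 0 of 44 tested members held a site of the 3p arm, taken as letters that pair with the whole seed or with bases 2 to 7 and are followed by an A, against 323 of 11616 tested genes with a UTR (2.78%). A site of the 5p arm was found in 1 of 44 members, Atp5a1, where it is of the second kind and leaves base 8 unpaired, against 1627 of 11616 genes (14.01%). The members' UTRs were short, with a median of 219.5 bp against 1170.0 bp over the tested genes. A missing site says only that these letters are not in the UTR searched.

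Promoters of respiratory genes are known for motifs of the activators NRF1 and GABP. RefSeq windows of 300 bases, 250 before to 50 after the transcript start, were found for 37 of 49 member symbols. The NRF1 core GCGCATGC, on either strand, was present in 8 of these 37 members (Atp5g2, Atp5k, Atp5l, Cox6a1, Cycs, Sdhb, Uqcr11 and Uqcrc1), or 21.6% of them, against 3.94% of all 17492 genes with a window and 3.52% of all 21263 windows. The GABP core CCGGAAG was present in 12 members, or 32.4%, against 12.9% of all genes and 11.6% of all windows. The YY1 core AAGATGGCG was present in Atp5j and Atp5j2, or 5.41%, against 2.14% of all genes and 1.83% of all windows. The windows of 4 members with the NRF1 core are shown, 1 each from complex II, cytochrome c, complex IV and complex V, 5′ to 3′ on the gene's strand, with NRF1 and GABP cores in capitals; where 2 matches to the palindrome-like NRF1 core overlap, their union is capitalised.
Sdhb, chr4:140961021-140961320, plus strand: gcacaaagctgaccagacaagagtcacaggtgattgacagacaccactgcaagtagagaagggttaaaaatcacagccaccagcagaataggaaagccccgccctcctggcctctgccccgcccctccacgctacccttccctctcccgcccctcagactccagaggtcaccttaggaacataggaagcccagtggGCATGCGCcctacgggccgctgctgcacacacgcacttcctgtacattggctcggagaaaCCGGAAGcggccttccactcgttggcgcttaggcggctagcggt
Cycs, chr6:50566520-50566819, minus strand: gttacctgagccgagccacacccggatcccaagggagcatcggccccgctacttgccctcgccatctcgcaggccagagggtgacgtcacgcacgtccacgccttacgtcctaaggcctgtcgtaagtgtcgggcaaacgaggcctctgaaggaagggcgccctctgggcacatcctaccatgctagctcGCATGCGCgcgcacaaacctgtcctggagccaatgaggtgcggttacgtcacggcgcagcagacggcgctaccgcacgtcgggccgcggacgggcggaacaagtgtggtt
Cox6a1, chr5:115348909-115349208, minus strand: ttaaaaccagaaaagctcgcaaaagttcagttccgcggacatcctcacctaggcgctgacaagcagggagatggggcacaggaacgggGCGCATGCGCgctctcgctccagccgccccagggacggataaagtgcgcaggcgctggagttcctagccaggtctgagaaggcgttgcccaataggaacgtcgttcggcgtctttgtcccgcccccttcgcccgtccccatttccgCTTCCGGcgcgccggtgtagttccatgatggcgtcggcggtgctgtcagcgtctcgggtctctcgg
Atp5g2, chr15:102670998-102671297, minus strand: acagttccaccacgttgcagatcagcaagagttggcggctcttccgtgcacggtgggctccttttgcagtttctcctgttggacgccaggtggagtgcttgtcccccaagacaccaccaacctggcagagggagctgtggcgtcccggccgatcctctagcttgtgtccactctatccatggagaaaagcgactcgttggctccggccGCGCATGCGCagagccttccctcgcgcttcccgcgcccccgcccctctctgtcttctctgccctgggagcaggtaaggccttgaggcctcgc
The NRF1 core began 54 bases before the start in Sdhb and 60 before it in Cycs. In Cox6a1 it lay farther upstream than the GABP core, which sat close to the start. In Sdhb the GABP core lay just after the start. The median log2 difference between the groups was 0.17 for the 8 tested members with the NRF1 core, 7 of them above 0, and 0.12 for the 26 tested members whose window lacked it, 22 of them above 0. For the GABP core the medians were 0.14 with it (12 members) and 0.12 without it (22 members). A match is a description of the letters and no evidence of binding.

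No respiratory member passed the test, while most members had somewhat higher values in miR652-KD. Of the 44 tested members, 37 had a log2 difference (miR652-KD minus NTC) above 0, or 84.1%, against 49.5% of all 14360 tested genes. Their median difference was 0.14, against -0.0044 over all tested genes, and single values ran from -0.38 for Atp5s to 1.47 for Cox4i2. The 7 members below 0 were Sdhd, Uqcrb, Uqcrc1, Uqcrc2, Uqcrfs1, Cox7a2l and Atp5s. By edgeR's quasi-likelihood test 0 of 44 were called at an adjusted p below 0.05 (0.0418% of all genes), with adjusted p from 0.779 to 0.9993. An unadjusted p below 0.05 was found for 4 members, Atp5mpl, Atp5d, Cox5b and Cox4i2, against 5.99% of all genes. DESeq2 called 0 of 44 members, against 0.768% of all genes, and limma-voom likewise 0, against 0.0487%.

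In CPM, the counts of a gene relative to the total gene counts of its library in M (SI mega), all 4 miR652-KD libraries lay above all 4 NTC libraries for 4 members, Atp5mpl, Atp5d, Atp5g2 and Cox6c, against 2.35% of all genes. The opposite order was found for 0 members, against 2.15% of all genes. With library sizes scaled by edgeR's TMM factors 3 of the 4 remained without overlap, against 2.26% of all genes, and Cox6c overlapped, at 153.4 in the highest NTC and 152 in the lowest miR652-KD library. The TMM factors ran from 0.981 to 1.03.

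**Figure D1:**
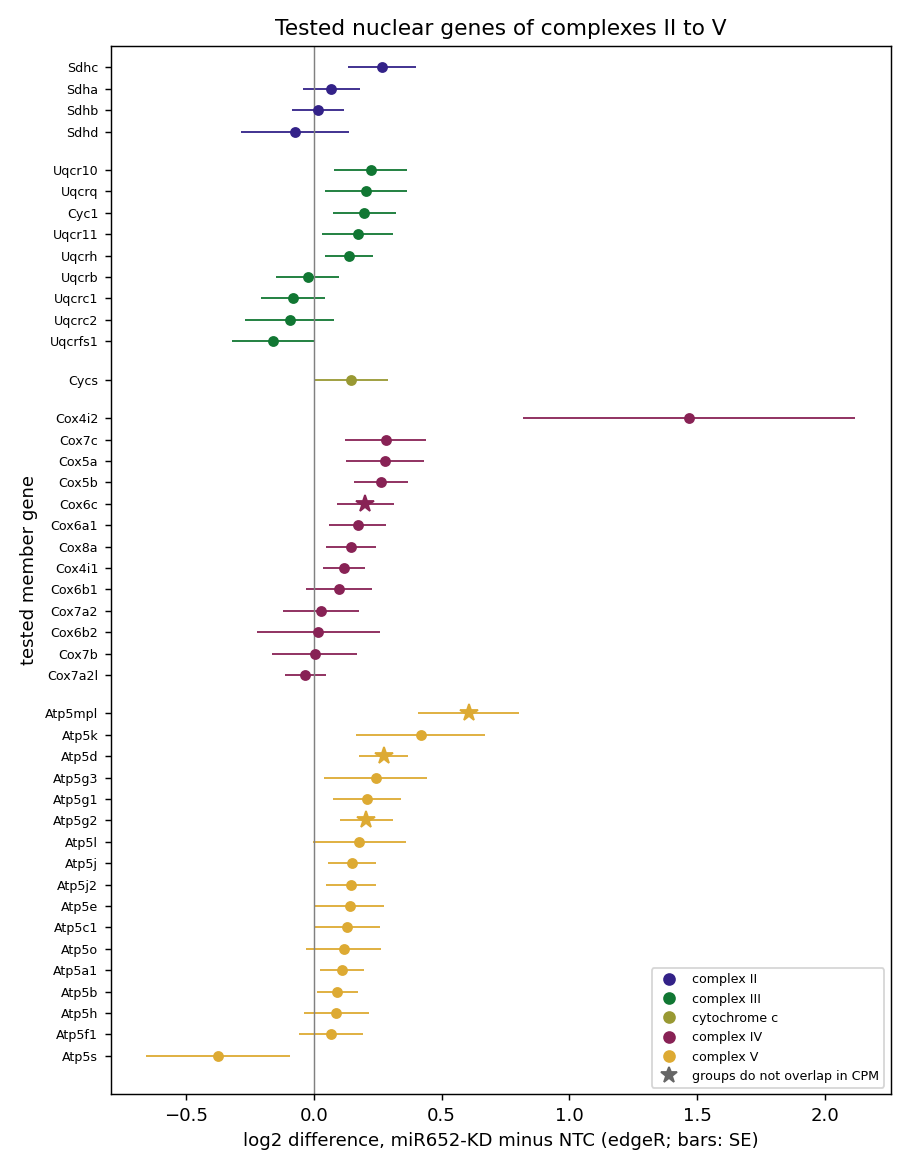
The x axis is the log2 difference of miR652-KD minus NTC with its SE (edgeR), and each row is one of the 44 tested members grouped by complex; stars mark members whose groups do not overlap in CPM. Of the members, 37 lie to the right of 0, and Cox4i2 stands apart with the largest value and the largest error.

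Gene counts totalled 14.02 to 16.8 M over the NTC libraries and 14.7 to 19.9 M over the miR652-KD libraries. The members took 0.994% of counts in NTC replicate 1, 1.21% in replicate 2, 1.09% in replicate 3 and 1.11% in replicate 4, and 1.17% to 1.21% in the miR652-KD libraries. NTC replicate 1 also had the highest share of reads outside annotated genes, 16.9% against 9.69% to 11.3% in the other libraries. The Mir652 hairpin row held at most 2 counts in any NTC library and at most 5 in any miR652-KD library, and the assay does not capture mature microRNAs, so the knockdown could not be checked. The 8 HSC markers were all tested and summed to 1944 to 2399 CPM in NTC against 2009 to 2156 CPM in miR652-KD. Of these 3 were above 0 and 0 were called; Ly6a (0.62) was higher and Kit (-0.34) lower in all 4 miR652-KD libraries than in all 4 NTC libraries. Sums of markers of other cells also differed among the libraries, in some lists with overlap of the groups. All 8 erythroid markers were tested, with 0 above 0; they summed to 2292 to 5647 CPM in NTC against 19.5 to 2272 CPM in miR652-KD, with 0 counts of Car1 in NTC replicate 1 and 0 of Klf1 in miR652-KD replicate 1. Of 9 neutrophil and monocyte markers 8 were tested, with 0 above 0. Their sums were 170.4 to 13710 CPM in NTC and 118 to 4032 CPM in miR652-KD. NTC replicate 1 was at 170.4 CPM, within the miR652-KD range. NTC replicates 3 and 4 were highest, at 8864 and 13710 CPM. Of 6 macrophage and dendritic markers 3 were tested, all above 0, with sums of 229.7 to 331 CPM in NTC against 529 to 629 CPM in miR652-KD, most of it H2-Aa, which was called; Csf1r was at 0 in all 4 NTC libraries. Of 6 tested G2 and M phase markers 5 were above 0. Their sums were 337 to 481 CPM in NTC and 438 to 884 CPM in miR652-KD, so the groups overlapped. Those of 5 tested megakaryocyte and platelet markers, 4 of them above 0, overlapped as well, at 222 to 379 and 177 to 312 CPM. The part of these cells in the respiratory values was not tested, and in bulk samples fewer cells of a type cannot be told apart from less RNA per cell.

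Complex II did not differ between the groups beyond its spread. Its 4 genes summed to 911, 993, 980.5 and 905 CPM in the 4 NTC replicates, in their order, and to 958, 1082, 925 and 1005 CPM in those of miR652-KD. The groups overlapped, at 947 ± 45.8 against 992 ± 68.1 CPM (SD, n = 4), and the median log2 difference over the 4 genes was 0.04 with 3 above 0, and 0.0096 to 0.09 leaving out single libraries. Sdha, the flavoprotein that oxidises succinate, stood at 439.7, 419.8, 370.4 and 375 CPM in NTC and at 426, 469, 346 and 436 CPM in miR652-KD (log2 difference 0.07). Its lowest and its highest value were both miR652-KD libraries. Sdhb, the iron-sulphur subunit, stood at 200.2, 211, 241 and 207 CPM in NTC and at 198, 227, 217 and 225 CPM in miR652-KD (log2 difference 0.01). Sdhb was the most abundant of the complex per length, at 189 CPM per kilobase (kb) of transcript, ahead of Sdha at 141, Sdhd at 132 and Sdhc at 57.1.

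The 2 membrane anchors of complex II, which hold the haem and the coenzyme Q site, had log2 differences of opposite sign. Neither passed, and the contrast between them was not tested. Sdhc stood at 143, 179, 145 and 191 CPM in NTC and at 211, 186, 214 and 179.9 CPM in miR652-KD. A log2 difference of 0.27 (SE 0.13) was the complex's value of smallest p and did not pass (edgeR adjusted p = 0.860). Sdhd stood at 128, 183, 224 and 132 CPM in NTC and at 124, 199.7, 147 and 164 CPM in miR652-KD (log2 difference -0.07, SE 0.21). In both groups the Sdhd libraries spread by more than the difference between the group means of 167 and 159 CPM. Of the assembly factors of complex II, which insert its flavin and iron-sulphur clusters, 0 of 4 passed and all 4 were above 0, with a median log2 difference of 0.55. Sdhaf1 had 0.80 (edgeR adjusted p = 0.859), Sdhaf4 0.43 (0.860) and Sdhaf2 0.32 (0.987).

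Complex III held 4 of the 7 members below 0, and 0 of its genes passed. The 9 genes summed to 1875, 2380.4, 2066 and 2322 CPM in NTC and to 2294, 2249.6, 2275 and 2158 CPM in miR652-KD. NTC replicate 2 was the highest of all 8 libraries and NTC replicate 1 the lowest, and the means of 2161 ± 234 and 2244 ± 60.4 CPM (SD, n = 4) differed by less than the NTC spread. Of the 9 genes 5 were above 0, with a median log2 difference of 0.14, or 0.087 without miR652-KD replicate 3. The number below 0 depended on NTC replicate 2. Without it 8 of the 9 were above 0, with a median of 0.17, while leaving out any other single library gave 5 to 7. With all 8 libraries the core proteins Uqcrc1 (-0.08) and Uqcrc2 (-0.09) and the Rieske iron-sulphur protein Uqcrfs1 (-0.16) were below 0. Cyc1, the membrane-bound cytochrome c1, had the smallest p of the complex, at 198, 228, 216 and 242 CPM in NTC against 282, 232, 218 and 279 CPM in miR652-KD. Its log2 difference was 0.20 (SE 0.12, edgeR adjusted p = 0.934). Its miR652-KD replicates 1 and 4 lay above all NTC libraries and replicates 2 and 3 within their range.

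Of the 5 small subunits of complex III 4 were above 0, with a median log2 difference of 0.17, namely Uqcr10 (0.22), Uqcrq (0.20), Uqcr11 (0.17) and Uqcrh (0.14), whereas Uqcrb had -0.02. Uqcrh, the hinge protein at the cytochrome c docking face, was the most abundant of the complex per length, at 723 CPM per kb. It stood at 349.95, 387, 396 and 374 CPM in NTC and at 405, 418, 462 and 370.2 CPM in miR652-KD. Of its miR652-KD libraries 3 lay above all NTC libraries, and replicate 4 lay within their range. Its log2 difference was 0.087 without miR652-KD replicate 3. Of 6 assembly factors of complex III 0 passed and 3 were above 0, with a median of -0.05. Ttc19, which clears fragments of the Rieske protein, had -0.69 (edgeR adjusted p = 0.930) and Uqcc1, needed for making cytochrome b, -0.47 (0.918).

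Cytochrome c itself showed no difference beyond its spread. Cycs, the somatic cytochrome c gene, stood at 134, 191, 133 and 157 CPM in NTC and at 177, 164, 155 and 185 CPM in miR652-KD. The log2 difference was 0.15 (SE 0.15, edgeR adjusted p = 0.995). The highest library was NTC replicate 2; the difference was 0.29 without it, 0.08 without NTC replicate 1 and 0.08 without NTC replicate 3. Per length Cycs was low among the members, at 51.9 CPM per kb, since its annotated principal transcript is 3123 bp long.

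Complex IV had higher values for 12 of 13 tested genes, with a median log2 difference of 0.15, and 0 passed. Its 18 genes summed to 2657, 3240.1, 2894 and 3021 CPM in NTC and to 3148, 3323, 3332 and 3036 CPM in miR652-KD, a mean of 2953 ± 243 against 3210 ± 143 CPM (SD, n = 4). NTC replicate 2 exceeded miR652-KD replicates 1 and 4. The complex's median was 0.0879 without NTC replicate 1 and 0.23 without NTC replicate 2, and without NTC replicate 1 the difference was 0.06 for Cox4i1, 0.09 for Cox6a1, 0.0879 for Cox8a and 0.13 for Cox6c. Cox5b, a zinc-binding subunit on the matrix side (ENSMUSG00000061518.11, mm10, chromosome 1, 36691449 to 36693681, plus strand), stood at 219, 279, 239.6 and 245 CPM in NTC and at 277, 309, 307 and 284 CPM in miR652-KD. The groups overlapped only through NTC replicate 2 and miR652-KD replicate 1. The difference between the groups, 0.26 on the log2 scale (SE 0.11), did not pass (edgeR adjusted p = 0.814).

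Cox6c, a small transmembrane subunit (ENSMUSG00000014313.15, mm10, chromosome 15, 35925886 to 35938246, minus strand), stood at 123, 149.95, 149 and 139 CPM in NTC and at 155, 172, 168 and 151 CPM in miR652-KD. The lowest miR652-KD library exceeded the highest NTC library by less than 1 CPM. The log2 difference was 0.20 (SE 0.11, edgeR adjusted p = 0.904). Of its exonic bases, 7.01% lie over exons of Vps13b on the opposite strand, whose reads cannot be told apart without strand. Of the remaining subunits Cox7c (0.28), Cox5a (0.28), Cox6a1 (0.17) and Cox8a (0.15) had log2 differences above the complex's median or equal to it, while Cox7a2 (0.03), Cox6b2 (0.02), Cox7b (0.0030) and Cox7a2l (-0.03) lay near 0.

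**Figure D2:**
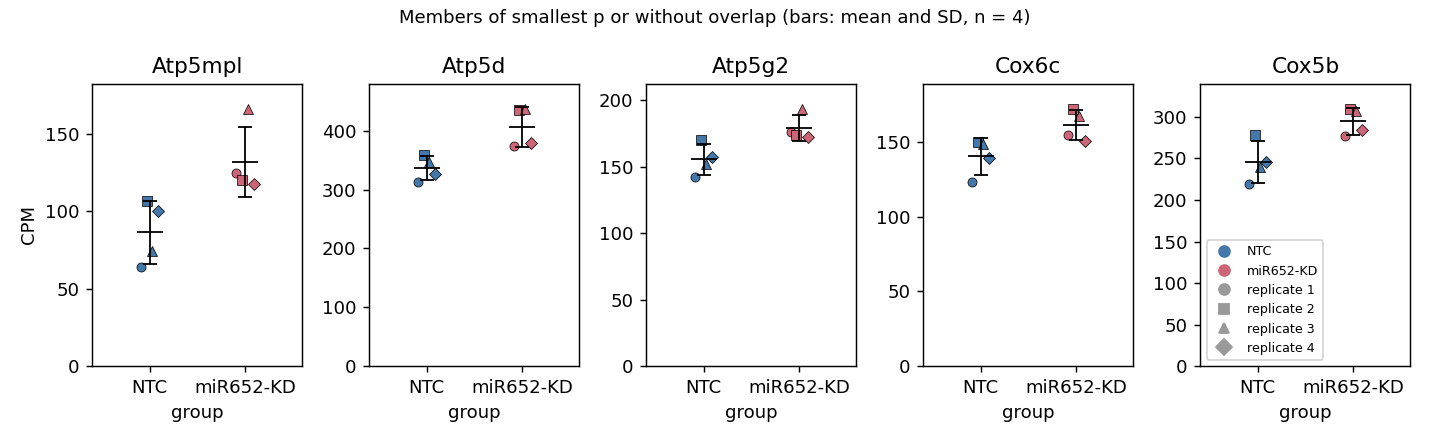
The y axis is CPM from 0, and points are the 4 NTC and 4 miR652-KD libraries with their mean and SD. In Atp5mpl, Atp5d, Atp5g2 and Cox6c every miR652-KD point lies above every NTC point, while Cox5b overlaps, with NTC replicate 2 at 279 CPM above miR652-KD replicate 1 at 277 CPM.

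Several complex IV subunits have a ubiquitous gene and a copy restricted to heart and skeletal muscle, lung, or testis. In these HSCs the ubiquitous gene held nearly all counts in most of these pairs. Cox4i1, the ubiquitous form of the regulatory subunit, was the most abundant member per length of all, at 939 CPM per kb, and stood at 611, 689, 663 and 725 CPM in NTC and at 704, 766, 728 and 713 CPM in miR652-KD (log2 difference 0.12). Only miR652-KD replicate 2 and replicate 3 lay above every NTC library.

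Cox4i2, the form best known from lung and from oxygen sensing (ENSMUSG00000009876.13, mm10, chromosome 2, 152754173 to 152765037, plus strand), was measured at 6.73, 5.85, 1.97 and 1.57 CPM in NTC and at 11.8, 19.3, 6.99 and 6.35 CPM in miR652-KD. Those values rest on 100, 82, 33 and 23 counts in NTC and 173, 317, 139 and 110 counts in miR652-KD. NTC replicate 1 lay above miR652-KD replicate 4, and in every other pair of libraries the miR652-KD value was the higher. The log2 difference of 1.47 (SE 0.65) did not pass (edgeR adjusted p = 0.833). Without miR652-KD replicate 2 it was 1.07, and without NTC replicates 3 and 4 together, the libraries of highest neutrophil markers, it was 0.83. As a share of the CPM of Cox4i1 and Cox4i2 together, Cox4i2 made up 0.611% ± 0.423 over the NTC and 1.48% ± 0.734 over the miR652-KD libraries (SD, n = 4 each).

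The testis-linked Cox6b2 was the 1 restricted isoform with a share of several percent. It stood at 28.2, 29.0, 22.7 and 18.2 CPM in NTC and at 21.3, 27.0, 27.0 and 23.9 CPM in miR652-KD, from 266 to 537 counts per library (log2 difference 0.02). Its ubiquitous partner Cox6b1 stood at 278, 387, 284 and 316 CPM in NTC and at 335, 372, 343 and 303 CPM in miR652-KD (log2 difference 0.10, and 0.03 to 0.23 leaving out single libraries). Cox6b2 thus took 7.26% ± 1.56 of the pair's CPM in NTC against 6.83% ± 0.628 in miR652-KD (SD, n = 4), or 9.42% and 8.88% per kb. Of 4 testis germ cell markers 3 were at 0 in every library, and the fourth, Ddx4, had 41 counts in NTC replicate 4, 6 in miR652-KD replicate 1 and 1 in miR652-KD replicate 2. Cox6b2 had 381 to 537 counts in the 5 libraries in which all 4 germ cell markers were at 0.

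The muscle-type isoforms and the remaining testis-type isoforms were near or at 0. Cox6a2 had 23 counts in miR652-KD replicate 2 and 0 in the other 7 libraries, where 0 allows up to 0.151 to 0.214 CPM depending on library size; the limit covers counting error only, since amplified reads carry no molecular identifiers. Its ubiquitous partner Cox6a1 stood at 291, 375, 337 and 355 CPM in NTC and at 375, 428, 378 and 347 CPM in miR652-KD (log2 difference 0.17). Cox7a1 had 0, 9, 6 and 0 counts in NTC and 2, 0, 32 and 22 counts in miR652-KD, at most 1.61 CPM. Cox7b2, Cox8b and Cox8c had 0 counts in every library. Of 6 cardiac and skeletal muscle markers 4 were at 0 throughout, and the others summed to at most 0.341 CPM in any library.

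The ubiquitous partners of these genes carried their subunits in both groups. Cox7a2 stood at 109, 151, 107 and 123 CPM in NTC and at 130.5, 121, 139 and 109 CPM in miR652-KD. Cox7a2l, related in sequence and known as an assembly factor of respiratory supercomplexes, stood at 453, 495, 472 and 503 CPM in NTC and at 449, 459, 483 and 482.5 CPM in miR652-KD. Cox7a2l took 79.7% ± 2.21 of the family's CPM in NTC against 78.9% ± 1.88 in miR652-KD (SD, n = 4). Cox7b, on the X chromosome, stood at 93.9, 140.1, 115 and 110.35 CPM in NTC and at 119, 90.6, 131 and 119.9 CPM in miR652-KD. Both its highest value, NTC replicate 2, and its lowest, miR652-KD replicate 2, go against the direction of most members. Cox8a stood at 315, 374, 361 and 347 CPM in NTC and at 386, 389.6, 424 and 344 CPM in miR652-KD, and miR652-KD replicate 4 lay within the NTC range.

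**Figure D3:**
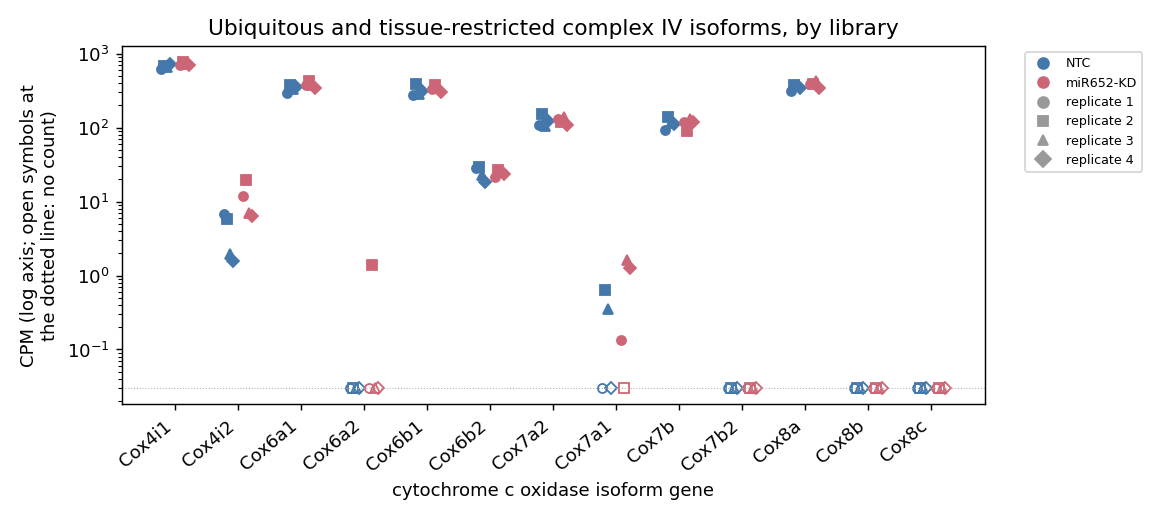
The y axis is CPM on a log scale by library for the isoform genes of complex IV, with open symbols at the dotted line for libraries with no count. Cox4i2 and Cox6b2 lie far below Cox4i1 and Cox6b1, Cox6a2 has counts in miR652-KD replicate 2 and in no other library, and Cox7b2, Cox8b and Cox8c have none.

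Genes listed for the assembly of complex IV did not move one way. Among them are factors that deliver copper and haem and guide the mitochondrially encoded core. Of 27 listed genes 25 were tested, 0 passed and 15 were above 0, with a median log2 difference of 0.05. Cox14, which stabilises newly made mt-Co1, averaged 191 ± 22.6 CPM in NTC against 237 ± 10.9 CPM in miR652-KD (SD, n = 4) without overlap, with 0.31 on the log2 scale (SE 0.11, adjusted p = 0.779). Coa6, a copper-handling factor, had 0.35 without overlap (adjusted p = 0.924), and Coa5 had -0.29 (0.918).

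Complex V had higher values for 16 of 17 tested genes, with a median log2 difference of 0.14, and held 3 of the 4 members without overlap. Its genes summed to 4357, 5264, 4817 and 4681 CPM in NTC and to 5189, 5150.3, 5456 and 5285 CPM in miR652-KD, a mean of 4779.8 ± 376 against 5269.97 ± 136 CPM (SD, n = 4). NTC replicate 2 lay within the miR652-KD range and the other 3 NTC libraries below it. The 5 genes of the F1 head, where ATP is made, were all above 0, with a median of 0.13. Of the other 12 tested genes, of the membrane part, the stalks and associated factors, 11 were above 0, with a median of 0.16.

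In the head, Atp5b, the catalytic beta subunit, was the most abundant of the complex per length, at 634 CPM per kb, and stood at 1107, 1277, 1189.8 and 1137 CPM in NTC and at 1237, 1176, 1248 and 1350.4 CPM in miR652-KD (log2 difference 0.09). Its groups overlapped widely, and its difference was 0.15 when NTC replicate 2 was left out and 0.05 when either NTC replicate 1 or miR652-KD replicate 4 was. Atp5d, the delta subunit of the central stalk (ENSMUSG00000003072.15, mm10, chromosome 10, 80138632 to 80145818, plus strand), stood at 313, 359.6, 347 and 326 CPM in NTC and at 374, 435, 436 and 379.7 CPM in miR652-KD. Every miR652-KD library lay above every NTC library, with means of 337 ± 20.6 and 406 ± 34.2 CPM in NTC and miR652-KD (SD, n = 4). The log2 difference of 0.27 (SE 0.09) did not pass (edgeR adjusted p = 0.779). The other head genes were Atp5a1 (0.11), Atp5c1 (0.13) and Atp5e (0.14).

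Atp5mpl, a small proteolipid associated with the membrane part (ENSMUSG00000021290.6, mm10, chromosome 12, 111961375 to 111966977, minus strand), had the largest log2 difference of the complex. It stood at 64.4, 107, 74.6 and 100.3 CPM in NTC and at 124, 119.9, 166 and 118 CPM in miR652-KD. NTC replicates 1 and 3 were lowest, miR652-KD replicate 3 was highest, and the groups did not overlap. The means were 86.5 ± 20.3 and 132 ± 22.8 CPM (SD, n = 4), a log2 difference of 0.61 (SE 0.20) that did not pass (edgeR adjusted p = 0.779). Across all alternative settings it stayed between 0.48 and 0.74. Its principal transcript, 366 bp, was the shortest among the tested members.

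The c ring that turns in the membrane is encoded by 3 genes, Atp5g1, Atp5g2 and Atp5g3, whose proteins differ in the import peptide that is removed. Atp5g1 stood at 222, 326, 262 and 309.9 CPM in NTC and at 325, 311, 317 and 340.5 CPM in miR652-KD (log2 difference 0.21). Atp5g2 (ENSMUSG00000062683.11, mm10, chromosome 15, 102662864 to 102672352, minus strand), whose promoter window is printed above, stood at 142, 169.8, 152 and 158 CPM in NTC and at 176, 174, 193 and 172 CPM in miR652-KD. The lowest miR652-KD library exceeded the highest NTC library by a few CPM, and the log2 difference of 0.20 (SE 0.10) did not pass (edgeR adjusted p = 0.869). Atp5g3 stood at 90.4, 149, 128 and 139 CPM in NTC and at 163, 113, 189 and 134 CPM in miR652-KD (log2 difference 0.24). Without NTC replicate 1 the difference was 0.10 for both Atp5g1 and Atp5g3; that of Atp5g3 was 0.12 without miR652-KD replicate 3 and 0.36 without miR652-KD replicate 2. The division among the 3 genes was alike in the groups: Atp5g1 took 49.7% ± 1.34 of their CPM in NTC and 49.7% ± 3.36 in miR652-KD, Atp5g2 27.9% ± 2.42 and 27.5% ± 1.20, and Atp5g3 22.4% ± 1.68 and 22.8% ± 3.70 (SD, n = 4). Where gene copies are near-identical, reads may be split between them or lost.

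Among the other complex V genes, Atp5k, subunit e of the dimer interface, had 0.42 (SE 0.25) and Atp5l, subunit g, 0.18. The peripheral stalk genes Atp5f1 (0.07), Atp5h (0.09), Atp5j (0.15) and Atp5o (0.12) lay between 0.07 and 0.15. Atp5o is uncertain, since 47.9% of its exonic bases overlap other annotated genes, among them its second row, which had 0 counts everywhere. Atp5s, known as coupling factor B, had the lowest value of all members, -0.38 (SE 0.28). Of 6 assembly and control genes of complex V 0 passed and 4 were above 0, with a median of 0.01. The assembly chaperones Atpaf1 and Atpaf2, which bind the beta and alpha subunits, had 0.76 (edgeR adjusted p = 0.810) and -0.46 (0.948), and Fmc1 had 0.60 (0.801).

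**Figure D4:**
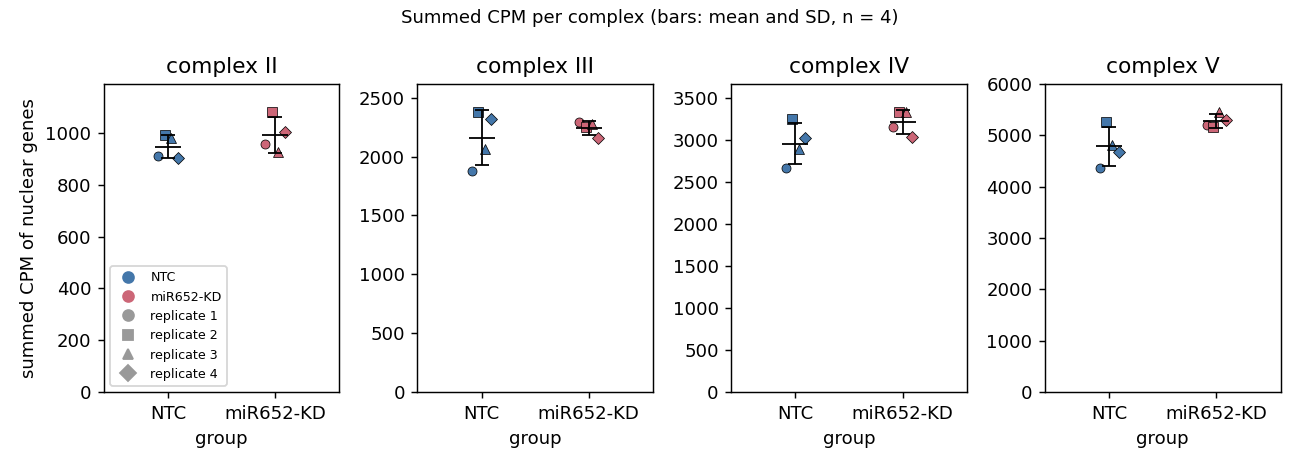
The y axis is the summed CPM of the nuclear genes of each complex from 0, with 4 libraries per group and their mean and SD. NTC replicate 1 is the lowest library in complexes III, IV and V, and in all 4 complexes at least 1 NTC library lies within or above the miR652-KD range.

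Genes that supply or regulate the complexes gave 0 calls. Of 11 transcriptional regulators 4 were above 0, with a median log2 difference of -0.08. Yy1 had 0.34 (edgeR adjusted p = 0.918) and the coactivators Ppargc1a and Ppargc1b 0.78 (0.995) and -0.45 (0.996). Of 15 genes for coenzyme Q synthesis, haem attachment to cytochrome c and electron-transfer flavoproteins 10 were above 0, with a median of 0.07. The coenzyme Q genes Pdss2 (1.17, adjusted p = 0.781), Coq4 (0.76, 0.817) and Coq7 (0.50, 0.826) had the smallest p. Of 6 genes that move ADP, ATP and phosphate across the mitochondrial membranes, 3 inner-membrane carriers and the outer-membrane channels Vdac1, Vdac2 and Vdac3, 5 were above 0, with a median of 0.14, among them Slc25a4 (0.22, adjusted p = 0.848) and the phosphate carrier Slc25a3, which averaged 666 ± 23.2 CPM in NTC against 728 ± 6.42 CPM in miR652-KD (SD, n = 4) without overlap (0.13, adjusted p = 0.882).

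The mitochondrially encoded partners of the same complexes had the opposite sign. All 5 tested genes were below 0, with a median log2 difference of -0.25. The cytochrome b gene mt-Cytb of complex III averaged 8783 ± 549 CPM in NTC against 6829 ± 518 CPM in miR652-KD (SD, n = 4) without overlap, a log2 difference of -0.36 (SE 0.07) that did not pass (edgeR adjusted p = 0.470). The catalytic subunit gene mt-Co1 of complex IV averaged 8021 ± 564 CPM in NTC against 6354 ± 419 CPM in miR652-KD (SD, n = 4), also without overlap (-0.33, SE 0.07, adjusted p = 0.470). The genes mt-Co2, mt-Co3 and mt-Atp6 were listed at only 28.6, 24.1 and 22.3 CPM in NTC on average, and mt-Atp8 had at most 3 counts in a library. Why these rows are so low beside mt-Co1 was not tested, so the ratio given for complex V in the next paragraph, which rests on them, is uncertain. The complex IV ratio there includes mt-Co2 and mt-Co3 but rests almost wholly on mt-Co1.

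Set against these, the nuclear genes of each complex had a higher ratio in every miR652-KD library. The nuclear genes of complex III had 0.222, 0.255, 0.226 and 0.283 CPM for each CPM of mt-Cytb in NTC and 0.317, 0.366, 0.339 and 0.298 in miR652-KD. Those of complex IV had 0.338, 0.364, 0.3798 and 0.383 CPM for each CPM of mt-Co1, mt-Co2 and mt-Co3 in NTC and 0.464, 0.572, 0.503 and 0.476 in miR652-KD. The groups did not overlap in either ratio. The complex V ratio to mt-Atp6 and mt-Atp8 ran from 201 to 237 in NTC and from 241 to 349 in miR652-KD. In the ratios of complexes III and IV the mitochondrial side differed more, by -0.36 and -0.34 as the log2 ratio of the group means, than the nuclear side, by 0.05 and 0.12.

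The members share short transcripts, which the rule did not use. The median length of the tested members' principal transcript was 736 bp, from 366 to 3171 bp. Of the 22 tested members below that length 21 were above 0, with a median log2 difference of 0.19, and of the 22 at or above it 16, with a median of 0.10. Of 325 tested protein-coding non-members below 736 bp 69.8% were above 0, with a median of 0.15, against 95.5% and 0.19 for the members below it; this difference was not tested. Without ribosomal protein genes 284 were left, with 66.2% above 0 and a median of 0.12. Of 11313 tested protein-coding genes at or above that length 48.5% were above 0, with a median of -0.01. The part of transcript length in the members' values was not tested.

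The members' median also followed single libraries. As a log2 level relative to each gene's mean over the 8 libraries (pseudocount 0.5 CPM), it was -0.23, 0.07, -0.09 and -0.06 in NTC replicates 1 to 4 and 0.07, 0.08, 0.11 and 0.02 in miR652-KD replicates 1 to 4. The short non-members had -0.19, 0.03, -0.04 and -0.06 in NTC and 0.11, 0.11, 0.11 and 0.0042 in miR652-KD. All tested genes had 0.08 in NTC replicate 1 and 0.01 to 0.04 in the other libraries. NTC replicate 1 was the lowest library for 25 of 44 tested members, 56.8%, against 14.6% of all tested genes, and the highest for 0. NTC replicate 2 was the highest for 9 and the lowest for 0. Without NTC replicate 1 the members' median log2 difference was 0.09 with 33 above 0, and that of the short non-members was also 0.09. Without NTC replicate 2 the medians were 0.21 and 0.20, with 40 members above 0.

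**Figure D5:**
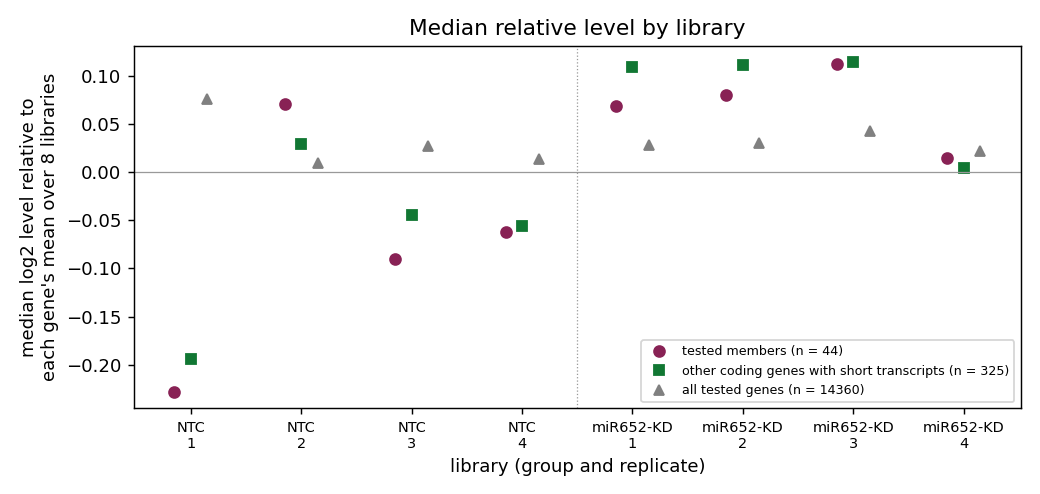
The y axis is the median log2 level relative to each gene's mean over the 8 libraries, by library, for the 44 tested members, 325 other protein-coding genes with short transcripts and all 14360 tested genes. Members and other short genes move together from library to library, lowest in NTC replicate 1 at -0.23 and -0.19, while all tested genes stay between 0.01 and 0.08.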

How the data were processed

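The authors deposited 1 table of raw read counts by gene for each library. HISAT2 2.1.0, HTSeq 0.11.2, DESeq2 and the mm10 build are named, per the submitters' processing notes; how the reads were assigned by strand, and with which annotation release, is not given in the sources read. The 5 summary lines of each file entered neither library sizes nor tests; reads outside genes took 9.69% to 16.9% and ambiguous reads 8.94% to 12.3% of a file. Of the gene IDs 55394 were found in GENCODE M21.

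CPM are counts over each library's gene total. The test was edgeR 4.0.16 in R 4.3.3 (TMM, filterByExpr at 10 counts and 15 in total, robust quasi-likelihood fit, group as the only term, all 8 libraries), with Benjamini-Hochberg adjustment over 14360 genes and calls below 0.05. Values per kb use the APPRIS principal transcript of best support, the shortest where several tied. Alternatives were other scalings, DESeq2 1.42.0, limma-voom (limma 3.58.1), other filters, a replicate block and leaving out libraries; comparison with short genes was added after seeing the data. The fit was tested on simulated counts.

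Named with every library's value were members without overlap, the smallest p and the highest level per kb in each complex, Cycs, the Sdh genes and isoform families. Members and lists were chosen with earlier results of these data known. Medians, sums and shares carry no test.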

Additional observations from a re-analysis of the deposited data

Results flagged for a closer look

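Groups of 4 libraries were examined for members and for complex sums. In 3 of these 102 groups, 1 library stood far from the other 3 by Dixon's criterion. For normally spread values chance flags about 1 group in 20, so the flags are no more than chance would give. Where the other 3 libraries are at 0, as for Cox6a2, any count gives the flag. Cox6a2, the muscle form of a complex IV subunit, was at 1.40 CPM in miR652-KD replicate 2 and at 0 in the other miR652-KD libraries. Atp5mpl, the small proteolipid of complex V, was at 166 CPM in miR652-KD replicate 3 against 118 to 124 CPM in the others of its group. Atp5o, the stalk subunit that confers oligomycin sensitivity, was at 58.2 CPM in NTC replicate 3 against 53.5 to 54.3 CPM in the other NTC libraries.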

How the results depend on the processing

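Over 18 alternatives 0 members were called, the median of the members stayed above 0 and so did the median of each complex. Leaving out single libraries gave 0.09 to 0.21 for the members' median with 33 to 40 above 0. Over all genes 6 were called, but 129 by DESeq2 and 0 without any single library, without NTC replicates 3 and 4 together or with the replicate number as a block. The block changed no call of a member, with a median of 0.14 and 37 above 0. Same-numbered libraries did not deviate together (r -0.033 to -0.01), and 0 of 8 libraries correlated best with their own number. This cannot decide whether the numbers pair the libraries, since a shared source need not leave such a correlation. The labels do not say. Of the 24 tested members named with every library's value 6 changed sign somewhere, each from a value near 0. That count leaves out the other tested members, some of which also changed sign. In complex III 5 of 9 genes were above 0 with all libraries and 8 without NTC replicate 2. Cox7b had -0.0015 with RLE scaling, -0.0027 with DESeq2 and -0.0146 with limma-voom, which gave -0.0056 for Sdhb. Without NTC replicates 3 and 4 together the values were -0.20 for Cox6b2, -0.0578 for Cox7a2, -0.0221 for Cox7b, -0.0262 for Sdha and 0.0274 for Sdhd. Leaving out single libraries, they ran from -0.0954 to 0.127 for Cox6b2, -0.0353 to 0.164 for Cox7a2, -0.0924 to 0.130 for Cox7b, -0.0292 to 0.0779 for Sdhb and -0.196 to 0.102 for Sdhd; the cause was not tested. With the longest principal transcript, Atp5g1 was at 64.0 CPM per kb instead of 506, Uqcrq at 82.4 instead of 309, and the median of short non-members was 0.13. Reads have no molecular identifiers, so depth limits cover counting error only. On simulated counts 37 of 100 changes of 1 log2 were recovered over 14360 genes. Those changed genes were drawn from all tested genes at 5 CPM or more, not from the members. Smaller changes, such as the differences of most members, were not simulated.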
